A study of Rattus norvegicus with 9 samples.

Results

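Osteocyte genes were followed in the femur of Sprague-Dawley rats, in 9 poly(A) RNA libraries. The members are 8 genes chosen by name, Dmp1, Phex, Mepe, Sost, Dkk1, Fgf23, Irx5 and Pdpn, out of 32623 gene rows, and each symbol stood on 1 row. The libraries fall into 3 groups of 3, as the sample titles give them: rats treated with the herb Desertliving Cistanche, ovariectomized rats and normal SD rats (control). The title of the series places the treatment in ovariectomized rats, so that loss of the ovaries is shared by the treated and the ovariectomized groups; the genotype label is WT throughout. For age, sham surgery, dose, duration and animals per library, no source used here gives a value, and p-values measure the spread between these libraries, which may be technical. Libraries held 54992823 to 66531156 counts. Testing was limited to genes averaging 1 FPKM or more (fragments scaled by gene length and library size), and 7 of the 8 members were among the 13886 genes that did; Fgf23, with a mean of 0.441 FPKM, did not.

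Osteocytes are osteoblasts that have been buried in the matrix they made, and they sense load and steer bone formation, resorption and phosphate balance. Dmp1, Phex and Mepe act on mineral and phosphate, and loss of Dmp1 or Phex raises Fgf23, the hormone that makes the kidney excrete phosphate. Sclerostin, the product of Sost, and Dkk1 block the Wnt co-receptors Lrp5 and Lrp6 and so hold back bone formation. Pdpn (podoplanin, E11) marks young osteocytes that are growing dendrites, but also lymphatic endothelium and some fibroblasts, and Irx5 is an Iroquois homeobox transcription factor expressed in bone-forming cells.

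The sequences just upstream of Mepe, Sost and Dkk1 are shown because these 3 genes went up and down together from library to library. Each is a window of 300 bases, from 250 bases before to 50 after the start that RefSeq gives in the rat build GRCr8, read 5′ to 3′ on the minus strand, on which all 3 genes lie. The windows lie at chr14:5736809-5737108 for Mepe, chr10:87415717-87416016 for Sost and chr1:237798601-237798900 for Dkk1. Capitals mark matches, on either strand, to 4 motifs: the common promoter box TATAAA, the core of RUNX sites TGTGGT, the AP-1 site TGAGTCA and the nuclear receptor half-site AGGTCA.
Mepe: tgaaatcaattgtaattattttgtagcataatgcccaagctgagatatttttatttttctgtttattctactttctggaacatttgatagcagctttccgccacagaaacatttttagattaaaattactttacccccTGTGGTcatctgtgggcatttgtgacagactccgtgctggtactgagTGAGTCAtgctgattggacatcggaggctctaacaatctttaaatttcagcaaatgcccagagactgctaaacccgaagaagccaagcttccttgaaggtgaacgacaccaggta
Sost: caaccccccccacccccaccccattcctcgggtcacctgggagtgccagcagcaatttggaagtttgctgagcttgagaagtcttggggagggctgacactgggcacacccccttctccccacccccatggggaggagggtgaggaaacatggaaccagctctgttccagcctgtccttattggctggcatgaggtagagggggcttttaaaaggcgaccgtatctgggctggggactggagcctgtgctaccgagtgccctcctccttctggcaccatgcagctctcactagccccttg
Dkk1: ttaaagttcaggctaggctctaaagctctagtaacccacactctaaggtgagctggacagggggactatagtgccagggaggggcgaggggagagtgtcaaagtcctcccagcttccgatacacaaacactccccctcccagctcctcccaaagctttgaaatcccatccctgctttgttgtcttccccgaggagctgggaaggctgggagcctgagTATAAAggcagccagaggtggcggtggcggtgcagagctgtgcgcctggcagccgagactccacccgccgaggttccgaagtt
The Mepe window held TGTGGT 112 bases and TGAGTCA 65 bases before the start, the Dkk1 window held TATAAA 33 bases before it, and the Sost window held none of the 4 motifs. Of 33469 rat windows of this length, 17.3% held TGTGGT, 4.63% TGAGTCA, 14.2% TATAAA and 16.2% AGGTCA. The RefSeq table also held a window for Dmp1 and Pdpn, with a match only to AGGTCA in Pdpn. Phex, Fgf23 and Irx5 had no window. The gene positions below are those of the deposited table, whose build no source used here names.

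Levels per length separated the members into an abundant set and a low one. Mepe averaged 64.5 ± 23.9 FPKM and Dmp1 63.1 ± 23.9 FPKM (SD, n = 9 libraries), above 91.6% and 91.4% of the tested genes, and Sost averaged 38.2 ± 16.4 FPKM. Mepe exceeded Dmp1 in 4 of 9 libraries, so their order was not fixed, whereas Dmp1 exceeded Sost in 8 of 9. The next member, Pdpn, stood at 3.90 ± 1.16 FPKM, followed by Dkk1 at 3.36 ± 1.35 FPKM, Phex at 2.46 ± 1.16 FPKM and Irx5 at 2.18 ± 0.495 FPKM. The ranges of Sost and Pdpn did not meet, the Sost level being 6.06 to 19.3 times that of Pdpn within a library. Neighbours among the 4 low members overlapped, with Pdpn above Dkk1 in 5 of 9 libraries and Phex above Irx5 in 6 of 9. Fgf23 was below all of them in 9 of 9 libraries.

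Libraries of the same group differed more for these genes than for most others. The within-group SD of log2 CPM (counts scaled to library size, after TMM scaling) was 0.73 for Sost, 0.64 for Mepe, 0.63 for Dkk1, 0.57 for both Phex and Dmp1, 0.43 for Pdpn and 0.34 for Irx5, against a median of 0.18 over the 13886 genes. Ovariectomized replicate 2 was among the 3 lowest libraries for 7 of the 7 tested members and the lowest of all for 4. Treated replicate 1 was among the 3 lowest for 6 of 7, and control replicate 3 was among the 3 highest for 5 of 7. In bulk tissue, fewer osteocytes and less RNA per osteocyte cannot be told apart.

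**Figure D1:**
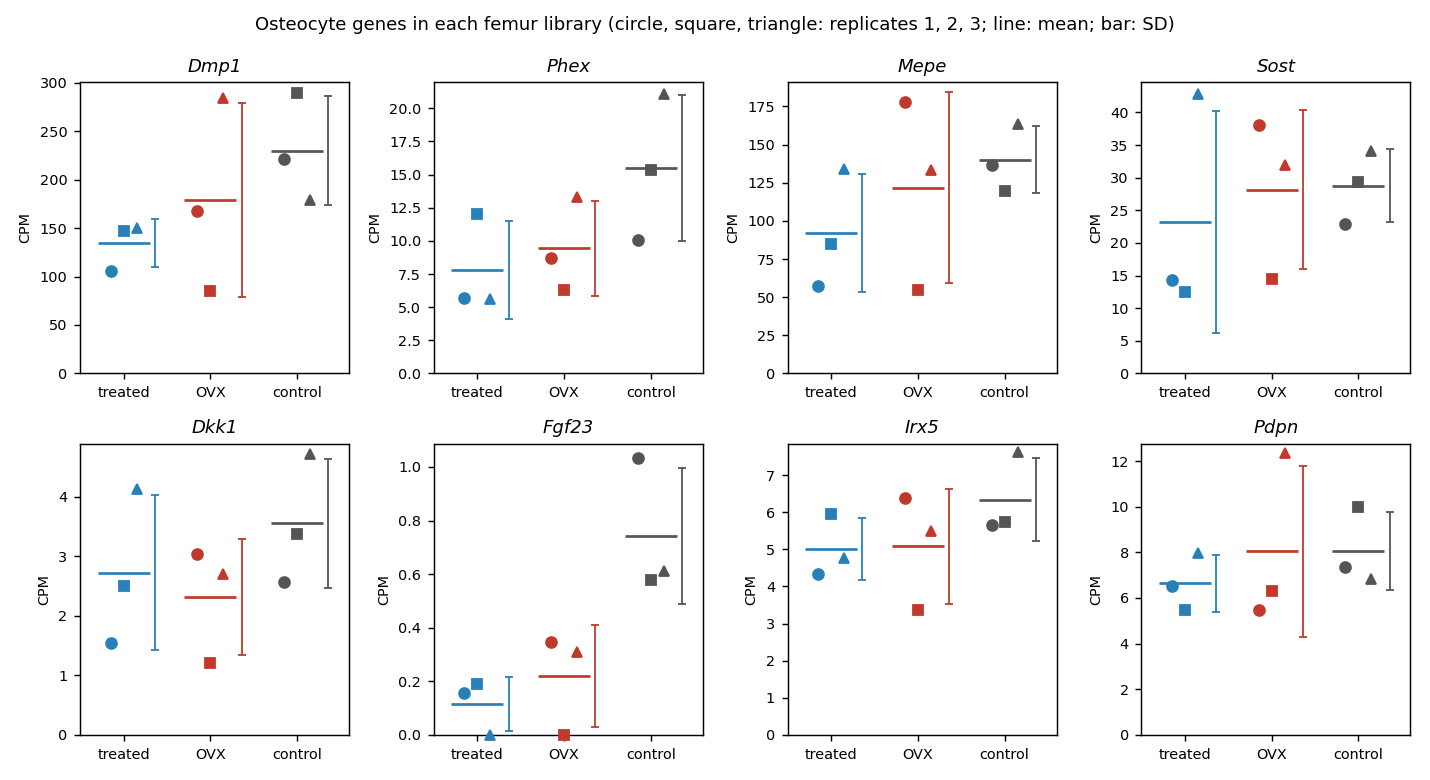
CPM of the 8 osteocyte genes in each femur library (y axis from 0), with treated, ovariectomized (OVX) and control groups along the x axis; symbols are replicates, lines are means and bars are SD (n = 3). The groups overlap in all panels except Dmp1 in treated against control rats and Fgf23, where every treated and ovariectomized library lies under the controls.

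Among the 3 mineral-related matrix genes and enzymes, the groups were fully apart only for Dmp1, and only in treated against control rats. Dmp1 (ENSRNOG00000002167, chr14:6889856-6900733), an acidic matrix phosphoprotein that seeds mineral around osteocytes, was at 106, 147 and 150 CPM in treated rats, at 167, 84.8 and 284 CPM in ovariectomized rats and at 221, 290 and 179 CPM in controls. All treated libraries lay under all control libraries, while the ovariectomized libraries spanned both. The log2 fold change was -0.78 ± 0.39 (SE; edgeR adjusted p = 0.605) for treated against control rats, which did not pass the threshold of 0.05, with a 95% interval of -1.66 to 0.11. Complete separation on the lower side was seen in 6.78% of all genes tested in that comparison. The estimates were -0.36 ± 0.39 for ovariectomized against control rats, while treated against ovariectomized rats gave -0.41 ± 0.39.

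Phex (ENSRNOG00000023440, chromosome X, 40460047 to 40717982), a membrane endopeptidase whose loss causes X-linked hypophosphataemia, had the largest estimated difference of the tested members. It was at 5.71, 12.0 and 5.63 CPM in treated rats, at 8.73, 6.27 and 13.3 CPM in ovariectomized rats and at 10.03, 15.4 and 21.1 CPM in controls. Treated replicate 2 fell within the control range, and the other treated libraries lay under it. For treated against control rats the log2 fold change was -0.99 ± 0.41 (SE; edgeR adjusted p = 0.545), and the unadjusted p of 0.0411 made Phex the only tested member under 0.05 in any comparison with edgeR. With DESeq2 the unadjusted p in that comparison was 0.0138 for Phex and 0.0331 for Dmp1. An unadjusted p under 0.05 was reached by 8.81% of all genes in that comparison. The estimate was -0.70 without control replicate 3 and -1.45 without treated replicate 2. For ovariectomized against control rats it was -0.72 ± 0.41.

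Mepe (ENSRNOG00000002154, chr14:6782012-6793558), a matrix phosphoglycoprotein that releases a peptide inhibiting mineralization, was at 57.2, 84.9 and 134 CPM in treated rats. It was at 178, 54.5 and 133 CPM in ovariectomized rats and at 137, 120 and 163 CPM in controls. The groups overlapped in each comparison, and ovariectomized rats held both the highest and the lowest library. The log2 fold changes were -0.61 ± 0.43 for treated against control rats, -0.20 ± 0.43 for ovariectomized against control rats, while treated against ovariectomized rats gave -0.41 ± 0.43. Without ovariectomized replicate 2, Mepe was at 0.15 in ovariectomized against control rats.

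Fgf23 (ENSRNOG00000052205, chr4:159622404-159630082), the phosphate-lowering hormone of osteocytes, was rare. It had 9, 12 and 0 counts in treated rats, 22, 0 and 20 counts in ovariectomized rats and 62, 34 and 41 counts in controls. All 6 libraries from treated and ovariectomized rats lay under all 3 controls, and those not at 0 had 9 to 22 counts. A count of 0 allows up to 0.0550 CPM in ovariectomized replicate 2 and 0.0475 CPM in treated replicate 3, at a limit of 3 counts that covers counting error only. Whether these zeros are counts or failed estimates cannot be told from the table, and the limit holds only if they are counts. Zeros were frequent at this level: of 1117 genes with a mean of 15 to 35 counts, 35.1% were listed at 0 in at least 1 library and 13.3% in at least 2, as Fgf23 was. In the edgeR fit without the FPKM filter (17418 genes), the log2 fold change was -1.75 ± 1.25 (SE; adjusted p = 0.9996) for ovariectomized against control rats, while treated against control rats gave -2.67 ± 1.31 (adjusted p = 0.656), with a 95% interval of -5.67 to 0.32 in the second. Separation on the lower side was seen in 4.08% of these genes when ovariectomized rats were set against controls and in 6.51% when treated rats were. The 2-sided exact permutation p of the CPM values was 0.1 in both, the smallest that 3 libraries against 3 allow. Treated and ovariectomized libraries overlapped for Fgf23, where 6.26% of genes were fully apart on the lower side.

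The Wnt antagonists among the members, Sost and Dkk1, overlapped between groups in every comparison. Sost (ENSRNOG00000020805, chr10:89897087-89900131) was at 14.3, 12.4 and 42.8 CPM in treated rats, at 38.1, 14.5 and 32.0 CPM in ovariectomized rats and at 23.0, 29.3 and 34.0 CPM in controls. The treated group held the highest and the 2 lowest of the 9 libraries, and the groups overlapped. The log2 fold change was -0.28 ± 0.51 for treated against ovariectomized rats, -0.029 ± 0.51 for ovariectomized against control rats, while treated against control rats gave -0.31 ± 0.51. The 95% interval for ovariectomized against control rats, -1.19 to 1.13, takes in a change of up to 2.19-fold upward. Without treated replicate 3 the treated estimates were -1.08 against ovariectomized rats and -1.11 against controls.

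Dkk1 (ENSRNOG00000011692, chr1:248954244-248956446) was at 1.55, 2.49 and 4.13 CPM in treated rats, at 3.04, 1.21 and 2.71 CPM in ovariectomized rats and at 2.57, 3.37 and 4.71 CPM in controls, from 66 to 316 counts per library. Its groups overlapped as well. Ovariectomized against control rats gave -0.61 ± 0.45 and treated against ovariectomized rats 0.23 ± 0.45, the only estimate above 0 among the members. Per length, the ratio of Sost to Dkk1 was 11.3, 6.07 and 12.6 in treated rats, 15.3, 14.7 and 14.4 in ovariectomized rats and 10.9, 10.6 and 8.78 in controls. All ovariectomized libraries had a higher ratio than all others. The 2-sided exact permutation p on the log2 ratio was 0.1 for the ovariectomized group set against controls and likewise for treated rats set against it, the smallest possible here, and 0.6 when adjusted over the 12 tests of 4 ratios made (Sost, Mepe and Phex over Dmp1 were the others).

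Pdpn (ENSRNOG00000014961, chr5:161947137-161981441) was at 6.53, 5.46 and 7.96 CPM in treated rats, at 5.47, 6.31 and 12.4 CPM in ovariectomized rats and at 7.36, 9.99 and 6.81 CPM in controls. Ovariectomized replicate 3 was the highest library, control replicate 2 came next, and the groups overlapped. The log2 fold change was -0.0015 ± 0.32 for ovariectomized against control rats, with a 95% interval of -0.74 to 0.73, and -0.28 ± 0.32 for treated rats against either of the other groups. Of the lymphatic markers, 5 of 6 were past the filter, and the summed level of the list ranged from 186 to 260 CPM in treated, 206 to 227 CPM in ovariectomized and 222 to 305 CPM in control rats; their part in Pdpn was not tested.

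Irx5 (ENSRNOG00000011180, chr19:16415636-16421191) had the narrowest spread of the members. It was at 4.34, 5.95 and 4.76 CPM in treated rats, at 6.38, 3.36 and 5.503 CPM in ovariectomized rats and at 5.66, 5.74 and 7.63 CPM in controls, and these groups overlapped. The log2 fold changes were -0.34 ± 0.26 for treated against control rats, -0.32 ± 0.26 for ovariectomized against control rats, while treated against ovariectomized rats gave -0.019 ± 0.26. Irx3, a paralogue on the same chromosome, ran through nearly the same CPM range, from 3.28 in ovariectomized replicate 2 to 8.09 in control replicate 3. Irx6, a further paralogue on that chromosome, was far lower, from 0.147 CPM in ovariectomized to 0.783 CPM in control rats.

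Counted together, 0 of the 7 tested members passed in any comparison with edgeR, and 0 with DESeq2. Over all genes the calls were 0% with edgeR in each comparison, and with DESeq2 0.425% for ovariectomized against control rats, 0.252% for treated against ovariectomized rats and 1.1% for treated against control rats. At an unadjusted p under 0.05, edgeR counted 0, 0 and 1 member in these comparisons, where the background was 5.05%, 5.2% and 8.81% of genes. For ovariectomized against control rats 7 of 7 estimates were below 0, with a median of -0.32, where 51.3% of all genes were below 0 with a median of -0.0037. Treated against ovariectomized rats gave 6 of 7 below 0, with a median of -0.28, against 51% of genes. Treated against control rats gave 7 of 7 with a median of -0.38, against 50% of genes. Groups were fully apart on the lower side for 0, 0 and 1 of the 7, against 3.92%, 6.63% and 6.78% of all genes. The members varied together over the same libraries, so that these counts of estimates are not of independent results. These comparisons share libraries, and single libraries carried the medians of those with the ovariectomized group. Without ovariectomized replicate 2 the median for ovariectomized against control rats was -0.033, and without ovariectomized replicate 3 that for treated against ovariectomized rats was 0.055. The median for treated against control rats ran from -0.81 to -0.26 with any 1 library left out.

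**Figure D2:**
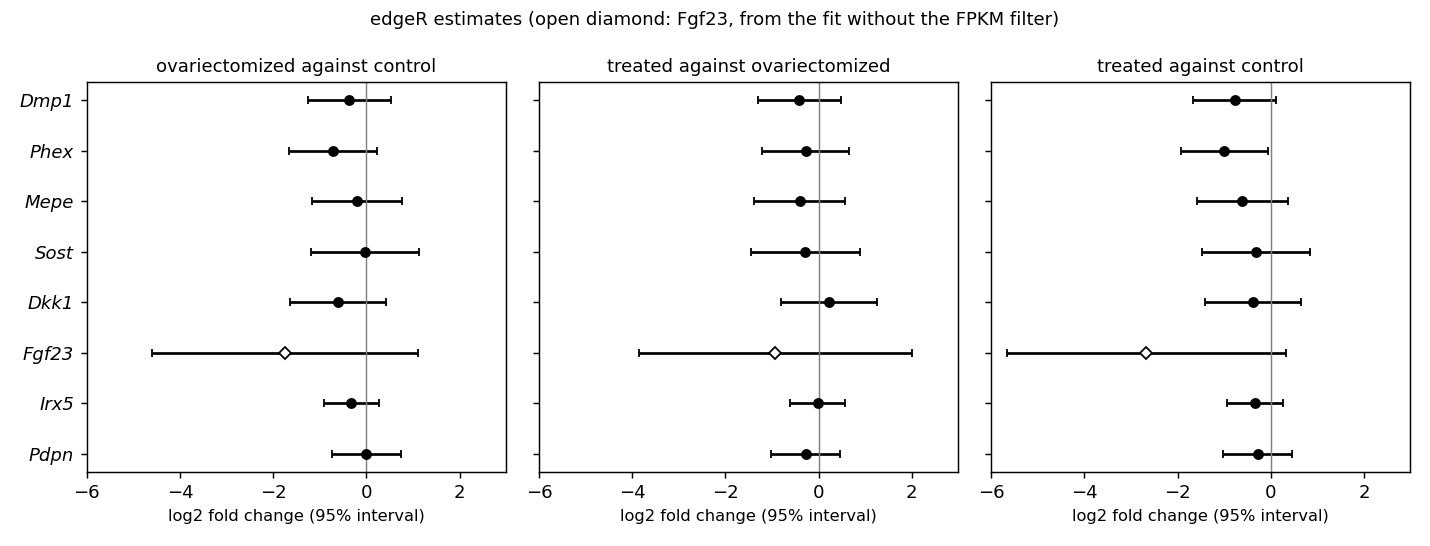
Log2 fold changes of the 8 members with 95% intervals (x axis) in each of the 3 comparisons, from edgeR. Only the interval of Phex in treated against control rats lies below 0 throughout (-1.93 to -0.050, unadjusted), and Fgf23 (open diamonds, fit without the FPKM filter) has the widest intervals.

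The members varied with each other from library to library. Pearson correlations of log2 CPM over the 9 libraries were above 0 for 21 of 21 pairs of tested members, with a median of 0.63, and 6 pairs had an adjusted exact permutation p of 0.0346 (Benjamini-Hochberg over the 21 pairs, 2-sided). These were Mepe with Dkk1 (r = 0.87, exact permutation p = 0.0034; rho = 0.73, p = 0.0311), Mepe with Sost (r = 0.86, exact permutation p = 0.0053; rho = 0.75, p = 0.0255), and Sost with Dkk1 (r = 0.79, exact permutation p = 0.0094; rho = 0.82, p = 0.0108). The others joined Irx5 to Mepe (r = 0.80), Dkk1 (r = 0.80) and Phex (r = 0.79). By Spearman's rho 0 of 21 pairs passed the adjustment. Mepe, Dkk1 and Sost also held together within groups: deviations from group means gave 0.93 for Mepe with Dkk1, 0.85 for Mepe with Sost and 0.88 for Sost with Dkk1, while the 3 pairs with Irx5 had an r of 0.79 with Mepe, 0.75 with Dkk1 and 0.74 with Phex. These were nearly as large as over all libraries, with adjusted permutation p of 0.0586, 0.0875 and 0.0905. For deviations the p is not exact and may be too small, since they sum to 0 in each group and were permuted across groups. Without the 2 libraries farthest from the median of the gene named first, r was 0.48 for Mepe with Dkk1, 0.82 for Mepe with Sost and 0.89 for Sost with Dkk1, and 0.35 for Mepe with Irx5 and 0.28 for Dkk1 with Irx5, so that these last 2 pairs, and that of Mepe with Dkk1, rested on those libraries. Phex with Irx5 kept an r of 0.71. Pdpn stood apart, with r from 0.024 with Irx5 to 0.42 with Sost, except for 0.70 with Dmp1. Libraries with low depth shared the low end, since ovariectomized replicate 2 had the fewest counts of all and treated replicate 1 the next fewest, and the part of depth in these correlations was not tested.

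**Figure D3:**
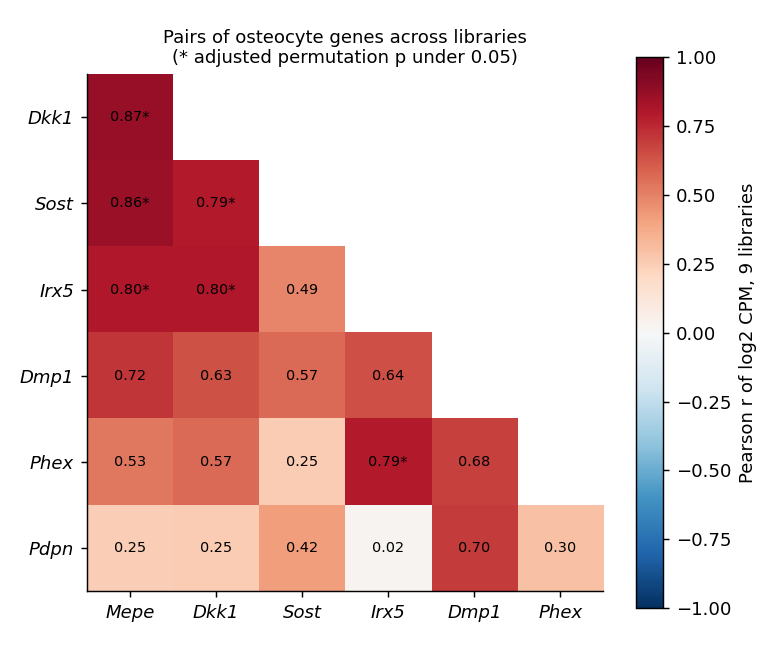
Pearson r of log2 CPM over the 9 libraries for the 21 pairs of tested members, with a colour scale from -1 to 1 and an asterisk at an adjusted permutation p under 0.05. The block of Mepe, Dkk1, Sost and Irx5 holds most of the high values, and the row of Pdpn the low ones.

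The genes with the most similar pattern were chosen by their Pearson r with the mean standardized log2 CPM of the 7 members, over 9 libraries and 13886 genes, as a description. The 8 nearest genes with a name, within the top 9, were Lhfpl6 (0.98), Smad7 (0.97), Antxr1 (0.96), Sash1 (0.96), Ppfibp2 (0.95), App (0.94), Tpbg (0.93) and Cfdp1 (0.93). Smad7, an inhibitor of TGF-beta signalling, was at 23.9, 25.3 and 27.9 CPM in treated rats, at 28.5, 21.2 and 29.7 CPM in ovariectomized rats and at 26.5, 28.4 and 29.8 CPM in controls, a far narrower range than that of Mepe or Sost. Among all genes, Mepe ranked 29 in likeness to Sost and 31 in likeness to Dkk1, the nearest ranks between members. Other members ranked far lower: in likeness to Phex, Irx5 ranked 342 and Sost 4718, and in likeness to Irx5, Pdpn ranked 6707. By likeness to their own mean, the members ranked from 18 for Mepe to 1560 for Pdpn. The list genes most like the members were Fgfr1 (r = 0.88), the receptor through which Fgf23 acts with Klotho, then Lum (0.87), Ptprz1 (0.87), Ibsp (0.87) and Vdr (0.85). The median r was 0.61 over 17 osteoblast genes, 0.45 over 13 cartilage genes, 0.43 over 13 erythroid genes, 0.39 over 13 fibroblast genes, 0.21 over 5 lymphatic genes, 0.28 over 11 osteoclast genes, -0.10 over 15 muscle genes and -0.56 over 12 adipocyte genes, against 0.015 over all genes.

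Genes around the members in their pathways were taken from fixed lists, and 0 of them passed in edgeR in any comparison. For treated against control rats, an unadjusted edgeR p under 0.05 was reached by 1 of 2 SIBLING genes, 4 of 12 phosphate and mineral genes, 1 of 17 Wnt genes and 2 of 17 further osteocyte-related genes, where 8.81% of all genes did. The SIBLING family of acidic matrix proteins, to which Dmp1 and Mepe belong, sits on chromosome 14 with its 5 genes inside 259 kb, Spp1 at 6673686 to 6679901 and Dspp at 6926976 to 6933070 being the outermost. Ibsp, bone sialoprotein, was at 210, 322 and 303 CPM in treated rats, at 719, 134 and 392.4 CPM in ovariectomized rats and at 661, 640 and 972 CPM in controls. All treated libraries lay under all controls, with a log2 fold change of -1.44 ± 0.51 (edgeR adjusted p = 0.512), and treated against ovariectomized rats gave -0.58 ± 0.50. Spp1, osteopontin, was at -0.52 ± 0.34 for treated and -0.46 ± 0.34 for ovariectomized against control rats. Dspp, the dentin member, was listed at 0 in all 9 libraries.

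Of 12 tested phosphate and mineral regulators, 10 estimates were lower in treated than in control rats (median -0.26), 10 lower in treated than in ovariectomized rats (median -0.13) and 11 lower in ovariectomized than in control rats (median -0.13). Vdr, the vitamin D receptor, was at -1.12 ± 0.36 in treated against control rats (edgeR adjusted p = 0.488), and Enpp1, which makes the mineralization inhibitor pyrophosphate, at -0.39 ± 0.13 (adjusted p = 0.485); neither showed overlap between the groups, as was so on the lower side for 6.78% of all genes. Galnt3, the glycosyltransferase that protects Fgf23 from cleavage, was at 0.31 ± 0.16 in treated against ovariectomized rats, on the opposite side to the gene of the secretory kinase Fam20c at -0.31 ± 0.15. Cyp24a1 was listed at 0 throughout. Of 17 tested Wnt genes, 13 estimates were lower in treated than in control rats, 13 lower in treated than in ovariectomized rats and 12 lower in ovariectomized than in control rats. The shares of all genes with lower estimates in these comparisons were 50%, 51% and 51.3%. Sfrp1, a secreted Wnt antagonist, was at 0.41 ± 0.13 in ovariectomized against control rats (edgeR adjusted p = 0.892). It was at -0.36 ± 0.13 in treated against ovariectomized rats (edgeR adjusted p = 0.929). Its groups were fully apart in the first comparison and overlapped in the second, and both use the same ovariectomized libraries. The share of all genes fully apart on the higher side was not counted. Among 17 further osteocyte-related genes, Ptprz1 had the smallest p in treated against control rats. It was at 7.83, 12.4 and 10.4 CPM in treated rats, 12.4, 8.88 and 17.4 CPM in ovariectomized rats and 17.3, 20.2 and 27.0 CPM in controls. Its log2 fold change in that comparison was -1.07 ± 0.28 (edgeR adjusted p = 0.473, DESeq2 adjusted p = 0.0274). It was the only gene of these 4 lists past the threshold in DESeq2. Ovariectomized against control rats already gave -0.74 ± 0.28 (edgeR adjusted p = 0.941), and the ovariectomized libraries overlapped both other groups.

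Markers of other cell types differed between the same libraries. The summed level of the 8 members was 195, 270 and 349 CPM in treated rats, 407, 171 and 483 CPM in ovariectomized rats and 407, 474 and 417 CPM in controls, so that all treated libraries lay under all controls. Dmp1 and Mepe, at means of 181 and 118 CPM over the 9 libraries, make up most of this sum, and Sost came next at 26.7 CPM. Of the tested members only Dmp1 was fully apart in that comparison by itself, as 6.78% of all genes were on the lower side. The osteoblast list, with 17 of 18 genes past the filter, summed to 4340, 8935 and 3534 CPM in treated rats, 3989, 4839 and 10941 CPM in ovariectomized rats and 6845, 7669 and 11681 CPM in controls. In treated against control rats 17 of 17 osteoblast estimates were lower (50% of all genes), with a median of -0.65. Ovariectomized against control rats also gave 17 of 17 lower (51.3% of all genes), with a median of -0.41. At an unadjusted edgeR p under 0.05 were 5 and 2 of these genes, against 8.81% and 5.05% of all genes. Treated against ovariectomized rats gave 15 of 17 lower (51% of all genes), with a median of -0.085. Genes of a list are measured in the same libraries, so that such counts are not of independent results. Ovariectomized replicate 1 and treated replicate 3 had the lowest osteoblast sums, with Col1a1 at 1064 and 1241 CPM. Sost was at 38.1 and 42.8 CPM there, the highest values of all libraries. Other libraries differed: control replicate 3 and ovariectomized replicate 3 had the highest osteoblast sums, with Sost at 34.0 and 32.0 CPM. Treated replicate 1 was low in both, with an osteoblast sum of 4340 CPM and Sost at 14.3 CPM. The sum does not speak for every osteoblast gene. In ovariectomized replicate 1 Ibsp, at 719 CPM, ranked 8 of the 9 libraries counted from the lowest. Cartilage genes ranged from 314 to 1044 CPM in treated, 451 to 685 CPM in ovariectomized and 711 to 1901 CPM in control rats, and 13 of 13 had lower estimates in treated than in control rats (50% of all genes), 2 of them at an unadjusted edgeR p under 0.05. In ovariectomized against control rats 12 of 13 cartilage estimates were lower (51.3% of all genes), with a median of -1.49 and 9 of 13 at an unadjusted p under 0.05. Skeletal muscle genes ranged from 1122 to 2372 CPM in treated, 1618 to 7576 CPM in ovariectomized and 483 to 1445 CPM in control rats, and adipocyte genes from 1535 to 2597 CPM, 1555 to 2343 CPM and 553 to 1323 CPM in the same order. Erythroid genes ranged from 6589 to 8103 CPM in treated, 8250 to 9106 CPM in ovariectomized and 7800 to 13004 CPM in control rats. In ovariectomized against control rats DESeq2 called 3 muscle genes and 2 adipocyte genes higher, and edgeR called 0 of either, with 14 of 15 and 8 of 12 at an unadjusted p under 0.05. In treated against control rats DESeq2 called 2 adipocyte genes higher, and 2 erythroid, 3 fibroblast and 1 osteoclast gene lower, where edgeR called 0. The osteoclast gene was Car2, at a DESeq2 log2 fold change of -0.59, while the osteoclast list was mixed, with 5 edgeR estimates higher and 6 lower. In edgeR 11 of 13 erythroid, 9 of 12 adipocyte, 6 of 13 fibroblast and 1 of 11 osteoclast genes had an unadjusted p under 0.05 there, and 13 of 13 erythroid estimates were lower. For treated against ovariectomized rats DESeq2 called 1 fibroblast gene, Thbs4, lower, and edgeR called 0. Estimates there were lower for 13 of 13 fibroblast, 13 of 13 erythroid and 15 of 15 muscle genes (51% of all genes). Of these, 6, 7 and 4 had an unadjusted edgeR p under 0.05 (5.2% of all genes). Cartilage had 10 of 13 higher and adipocyte genes 6 of 12. No gene of these lists was at 0 in all libraries, and the part of these other tissues in the values of the members was not tested.

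**Figure D4:**
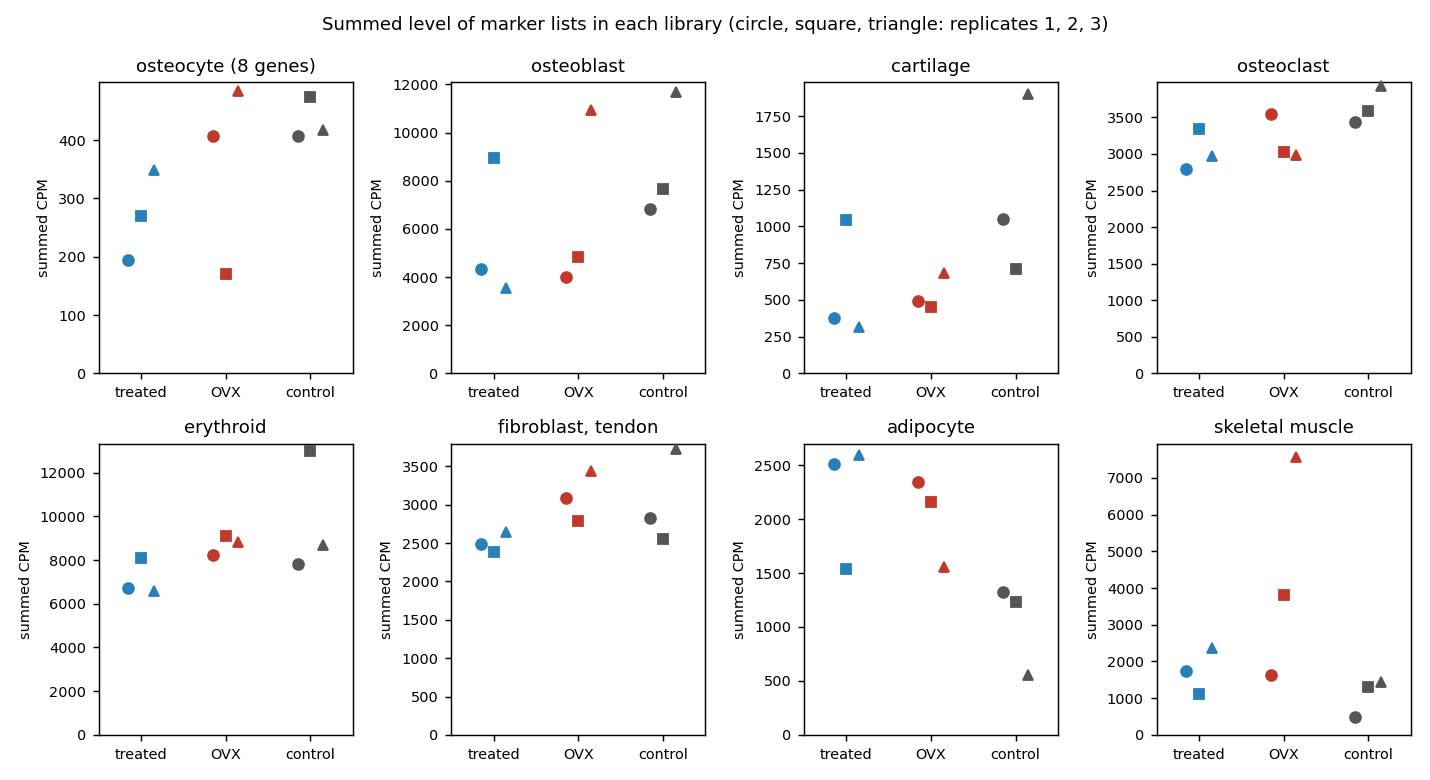
Summed CPM of the osteocyte genes and of 7 marker lists in each library (y axes from 0), with treated, ovariectomized (OVX) and control groups along the x axis and symbols for replicates. The osteocyte sum is lowest in ovariectomized replicate 2 (171 CPM), where the osteoblast sum (4839 CPM) ranks 4 of 9 from the lowest. The osteoblast sum is lowest in treated replicate 3 (3534 CPM), where the osteocyte sum (349 CPM) ranks 4 of 9.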

How the data were processed

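Femoral poly(A) RNA from 9 rat libraries was measured. The deposited table holds whole-number counts and FPKM values per gene, per the file headers, with Ensembl identifiers and coordinates. The submitters' processing notes name fastp, HISAT2 and StringTie without versions; no source used here gives the counting method, the strandedness or the genome build. The deposited FPKM is 0.0001 wherever the count is 0.

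From the counts, edgeR 4.0.16 (R 4.3.3) gave TMM factors and a quasi-likelihood fit over all 9 libraries for the 13886 genes averaging 1 FPKM or more, with Benjamini-Hochberg adjustment over all of them (threshold 0.05). DESeq2 1.42.0 and limma 3.58.1 were alternatives. The standard error is the log2 fold change over the root of edgeR's F, and 95% intervals use its t distribution. The fit was tested on simulated data. Libraries held 54992823 to 66531156 counts, and limits for counts of 0 cover counting error only, while the 95% intervals include the spread between libraries. Correlations used log2 CPM with a prior count and exact permutation over the 9 libraries. For deviations from group means the same permutation is only approximate. Replicate numbers are shared by the groups in the titles, but correlations of deviations between same-numbered libraries ran from -0.13 to 0.18, so they were not used as pairs.

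The members, and 12 lists with 176 symbols (10 without a row and not analysed here), were chosen with earlier results of these data known. The genes named from lists are among the 3 of smallest p per comparison, or the most similar in pattern. Irx3, Irx6, Spp1, Lum, Col1a1, Dspp and Cyp24a1 were chosen after their values were seen. Sequences are RefSeq windows of GRCr8, matched by symbol for 5 of 8 members. Without strand information, reads of overlapping genes cannot be told apart.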

Additional observations from a re-analysis of the deposited data

How the results depend on the processing

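The count of members past the threshold was 0 in every comparison under each alternative run. No member's estimate came past the threshold, and the lowest adjusted p was 0.273 among 183 values with other settings and 0.275 among 216 with a library left out. Of the 183, 180 kept their direction; Irx5 in treated against ovariectomized rats turned from -0.019 to 0.031 and 0.056 with limma on log2(FPKM + 1) and log2(FPKM + 0.1), and to 0.0097 with the replicate number as a block. The block changed no call. Of the 216, 16 turned: treated against ovariectomized estimates reached from -0.20 to 0.51 for Dkk1, -0.74 to 0.090 for Dmp1, -0.24 to 0.18 for Irx5, -0.49 to 0.18 for Pdpn, -0.73 to 0.055 for Phex and -1.08 to 0.018 for Sost. Ovariectomized against control estimates reached from -0.57 to 0.15 for Mepe, -0.45 to 0.21 for Pdpn and -0.31 to 0.28 for Sost. The treated minus control difference in the Sost to Dkk1 ratio, -0.097, reached from -1.41 to 1.86.

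Calls over all genes were 59 with DESeq2 in ovariectomized against control rats, 35 in treated against ovariectomized and 153 in treated against control rats, and in the same order 2, 1 and 1 with only the 2 groups compared. With a library left out they ranged from 0 to 4, 0 to 2 and 0 to 3. The causes were not tested. Of 6 pairs of members past the threshold, 3 passed as deviations from group means, by a permutation p that is only approximate there. With a library left out, where 8 libraries remain, 0 to 6 pairs passed. Of the 8 most similar genes, 4 to 7 were shared with a library left out. Fgf23 and Dkk1, with 0 to 62 and 66 to 316 counts per library, are the members most limited by depth. The settings for Fgf23, the median of the members, the most similar genes, and the left-out libraries for pairs and ratios were chosen after seeing the data.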
